A study of Homo sapiens with 6 samples.

Results

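The LSM2 to LSM8 genes were followed in RNA-seq of cells overexpressing DIS3L2 D391N and of control cells. The members were all transcripts whose Ensembl gene identifier carries the symbol LSM2, LSM3, LSM4, LSM5, LSM6, LSM7 or LSM8, which gave 7 of 63190 gene identifiers and 42 of 207167 transcripts. Of these, 25 transcripts had a mean of at least 1 RPKM (reads scaled by transcript length and library size) and were tested among 54671 transcripts, and 17 were too low to be tested. The samples were 3 libraries of cells overexpressing DIS3L2 carrying the D391N substitution and 3 control libraries, all of the human embryonic kidney line that the labels call HEK293 and the study HEK293T-Rex. The D391N construct was stably integrated and induced with doxycycline, and whether control cells were given the drug is not stated. All D391N libraries came from 1 engineered line, so the construct, the line and any difference in sequencing lane cannot be told apart. Nothing states that the libraries of a group were separate cultures, so the spread between them may be technical.

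LSM proteins carry the Sm fold and assemble into closed rings that hold the 3′ end of an RNA rich in uridines. The nuclear ring of LSM2 to LSM8 binds the oligo(U) end of U6 snRNA. In the cytoplasmic ring LSM1 takes the place of LSM8, and this ring works with PATL1 at the 3′ ends of deadenylated or uridylated mRNAs to promote decapping. DIS3L2 is a 3′ to 5′ exonuclease that degrades RNAs with oligo(U) tails, and the D391N protein is catalytically inactive.

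DIS3L2 itself was listed at 369, 467 and 512 RPKM in D391N replicates 1 to 3 and at 11.8, 12.9 and 14.6 RPKM in control replicates 1 to 3, a log2 fold change of 5.08 ± 0.18 (SE, n = 3 against 3, limma adjusted p = 0.00025). The DIS3L2 level therefore matched the labels of all 6 libraries as overexpressing or control. It does not show the D391N substitution itself. The D391N libraries differed among themselves. The correlation of D391N replicate 1 across tested transcripts, after the log2 transformation, was 0.66 and 0.75 with the other D391N libraries and between 0.82 and 0.85 with the controls, while the controls correlated with each other between 0.89 and 0.92. D391N replicate 2 correlated at 0.66 and 0.80 with its group and at 0.58 to 0.59 with controls, the lowest values of all pairs, and D391N replicate 3 at 0.72 to 0.76 with controls. The shallowest library had 0.684 of the depth of the deepest. Of the markers of HEK293 cells, VIM, KRT8, KRT18, NEFL, LIN28B and PAX2 were above 1 RPKM in all 6 libraries and NEFM was below it. The summed level of these 7 markers ranged from 310 to 369 RPKM in D391N libraries and from 448 to 491 RPKM in controls, and its part in the results on the ring genes was not tested. The summed level of PTPRC, ALB, HBB and INS, which mark other lineages, ranged from 5.19 to 7.02 RPKM and from 5.71 to 9.28 RPKM, and none of them was listed at 0. Of these, PTPRC (1.34 to 1.77 RPKM) and HBB (2.14 to 7.12 RPKM) were also above 1 RPKM in all 6 libraries. PAX2, at 1.31 to 1.93 RPKM, was thus not separated from genes of other lineages.

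No ring gene passed the test between D391N and control cells. The gene level was the RPKM summed over all transcripts of the gene, tested with limma on log2(RPKM + 0.1), a scale that understates the change of low genes. Called genes (adjusted p under 0.05) made up 0 of 7 ring genes and 0.234% of the 20539 genes tested, so no call would be the usual outcome for a list of this size. At an unadjusted p under 0.05 there were also 0 of 7, against a background of 22.9%. In none of the 7 were all D391N libraries below or above all control libraries, whereas 20.7% of all genes were lower without overlap and 10.5% were higher. With the libraries centred on their medians, LSM3 and LSM4 were higher without overlap, as were 21.3% of all genes, and neither was called. LSM4, LSM6, LSM7 and LSM8 had lower and LSM2, LSM3 and LSM5 higher means of log2 level in D391N libraries. The median difference of the ring genes was -0.056 beside -0.089 for all genes tested, and adjusted p-values ran from 0.345 to 0.859. RNA from whole cultures cannot distinguish fewer cells that express a gene from less RNA in each cell.

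**Figure D1:**
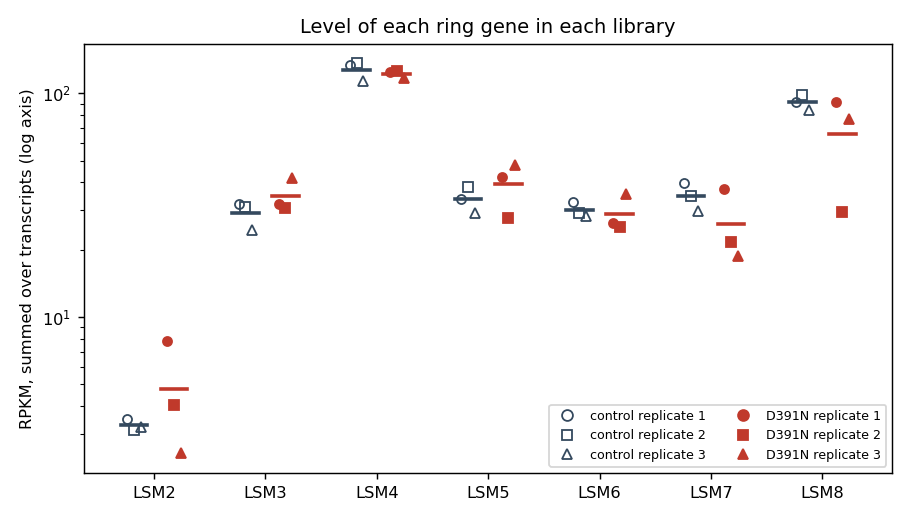
Summed RPKM of each ring gene (log axis) in each library, with controls as open and D391N libraries as filled symbols, a symbol shape for each replicate number and a bar at each group mean (n = 3). LSM4 is at the top and LSM2 at the bottom in all 6 libraries, and the groups overlap for every gene.

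In plain sums of RPKM the levels of the ring genes were not equal. LSM4 had the highest mean over all libraries in these sums, 125 ± 8.9 RPKM (SD, n = 6), and was first in 6 of 6 libraries. LSM8 followed with 78.8 ± 25.3 RPKM. It was above LSM5 in 6 of 6 libraries, although the ranges of the 2 genes, 29.5 to 98.7 RPKM and 27.8 to 47.9 RPKM, overlapped. LSM5 (36.5 ± 7.8 RPKM), LSM3 (32.03 ± 5.6 RPKM), LSM7 (30.4 ± 8.6 RPKM) and LSM6 (29.5 ± 3.9 RPKM) were not separated beyond their spread. LSM2 was last in 6 of 6 libraries with 4.03 ± 1.93 RPKM, a level that rests on less than 1 read per transcript. The place of LSM8 depended on how transcripts were summed, in alternatives chosen after seeing the data. Without transcripts under 300 nt LSM8 was at 21.9 ± 2.7 RPKM (SD, n = 6), and its mean was below those of LSM3, LSM5, LSM6 and LSM7. With RPKM weighted by transcript length in kilobases it was first in 6 of 6 libraries, at 228 ± 35 against 128 ± 9.5 for LSM4 (weighted units, SD, n = 6). The transcript LSM8-201 held 79.5% to 89.5% of that sum through a GENCODE v44 length of 12384 nt, which the authors' model may not share. The inverse of its posterior variance gave 294 to 586 reads, fewer than the 2036 to 4740 of LSM3-201, so this first place is uncertain. The ring proteins enter the ring in equal number, and the order concerns RNA estimates summed over isoforms of very different length.

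**Figure D2:**
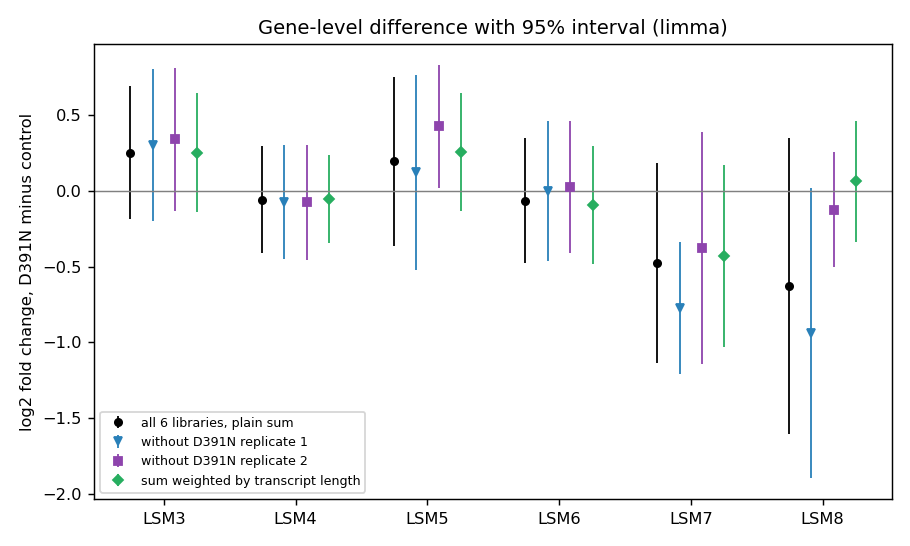
Difference of the gene level between D391N and control cells (log2 fold change, points) with its 95% interval from limma (lines) for LSM3 to LSM8, with all libraries, without D391N replicate 1 or 2, or with the sum weighted by transcript length. With all 6 libraries every interval includes 0. The LSM7 interval leaves 0 without D391N replicate 1, the LSM5 interval does so without D391N replicate 2 (not called, limma adjusted p = 0.232), and the LSM8 point moves to 0.064 with length weighting.

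LSM3 and LSM4 had the leading transcripts with the smallest posterior variance, which covers counting and assignment error only. LSM3 (ENSG00000170860, GRCh37 chr3:14220317-14242622, plus strand), a subunit of both rings, has 1 transcript in the table, LSM3-201 (ENST00000306024). It was listed at 32.2, 30.6 and 41.9 RPKM in D391N replicates 1 to 3 and at 31.96, 30.9 and 24.6 RPKM in control replicates 1 to 3. D391N replicate 3 was the highest and control replicate 3 the lowest, and the groups overlapped. On the log2 scale the difference was 0.25 ± 0.19 (SE, n = 3 against 3, limma adjusted p = 0.445), with a 95% interval from -0.19 to 0.69. At least 2036 reads supported each of these values, as judged from the inverse of the posterior variance. Its 4 processed copies LSM3P2, LSM3P3, LSM3P4 and LSM3P5 were listed at 0.072 to 4.99 RPKM, and reads shared with them were divided by BitSeq.

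LSM4 (ENSG00000130520, GRCh37 chr19:18417046-18433922, minus strand), also a subunit of both rings, had a summed level of 125, 125 and 117 RPKM in D391N replicates and 133, 136 and 113 RPKM in control replicates. The highest library exceeded the lowest by 1.20-fold, the narrowest range of the ring genes. Its log2 fold change was -0.056 ± 0.15 (SE, limma adjusted p = 0.851), with a 95% interval from -0.41 to 0.30.

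Of the LSM4 isoforms, LSM4-206 and LSM4-204 were lower in all D391N libraries than in any control, the other 4 overlapped in level, and none of the 5 tested passed the test. LSM4-201 (ENST00000252816, protein coding, 986 nt) led in every library. LSM4-206 (ENST00000600289, 1113 nt) is annotated as a target of nonsense-mediated decay (NMD), the pathway that removes mRNAs with a premature stop codon. It carries exon 2, which LSM4-203 and LSM4-204 also have, and exon 4, an exon of 105 bases at chr19:18420920-18421024 that LSM4-201 joins over. The annotated reading frame of LSM4-206 ends in exon 4 after 69 codons, whereas that of LSM4-201 has 125 codons before its stop. The 3 sequences that set the isoforms apart are given below in the sense of the mRNA, from the GENCODE v44 models on GRCh37 (minus strand). Exon 2 lies at chr19:18426834-18426875, the first 66 bases of exon 4 at chr19:18420959-18421024 with the in-frame stop codon in capitals, and the LSM4-201 join runs between 18423428 and 18420657 of chromosome 19, with the base on either side of the join in capitals.
LSM4-206 exon 2: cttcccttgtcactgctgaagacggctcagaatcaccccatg
LSM4-206 exon 4 to the stop: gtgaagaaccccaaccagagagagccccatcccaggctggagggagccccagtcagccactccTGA
LSM4-201 exon join: atctgcacgtccagGGacggggacaagttc

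The NMD isoform LSM4-206 was listed at 28.2, 12.1 and 18.4 RPKM in D391N replicates 1 to 3 and at 40.8, 31.6 and 30.3 RPKM in control replicates 1 to 3. Every D391N library was below every control, with D391N replicate 1 nearest to them. This gave a log2 fold change of -0.88 ± 0.35 (SE, n = 3 against 3, unadjusted p = 0.043, limma adjusted p = 0.270). As a share of the LSM4 sum it held 22.6%, 9.64% and 15.7% in D391N and 30.6%, 23.2% and 26.8% in control replicates. The gap between the nearest libraries of the 2 groups, 22.6% and 23.2%, was small. The coding LSM4-201 held 74.1%, 83.9% and 79.3% in D391N and 62.0%, 71.9% and 64.1% in controls. This was 79.1% ± 4.9 against 66.0% ± 5.2 (SD, n = 3 each), a difference of 13.1 percentage points. The two-sided exact permutation p was 0.10, the smallest that 3 against 3 can give, and 0.70 after adjustment over the 7 genes. Of these 7, LSM3 has 1 transcript, so its share could not differ. Among 14285 genes with several transcripts and a mean of at least 1 RPKM, the share of the leading transcript was higher in D391N without overlap in 11.8% and lower in 10.3%. Of the 6 ring genes with several transcripts, LSM4 was the single one in the former class and none was in the latter, which is near the background. The level of LSM4-201 itself overlapped between groups, with 92.3, 105 and 92.6 RPKM in D391N and 82.7, 97.8 and 72.5 RPKM in control replicates (log2 fold change 0.21 ± 0.24, SE, limma adjusted p = 0.678).

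LSM4-204 (ENST00000594828, protein coding, 807 nt) was a minor isoform with 0.466, 1.86 and 1.37 RPKM in D391N and 4.51, 3.94 and 3.36 RPKM in control replicates. All D391N values were below all control values, and about 3.7, 3.4 and 3.9 reads stood behind the former. The log2 fold change of -1.77 ± 0.49 (SE, n = 3 against 3, limma adjusted p = 0.179) had the smallest adjusted p of the ring transcripts. LSM4-203 (ENST00000593829, protein coding, 1704 nt) overlapped between groups at 2.58, 5.20 and 3.74 RPKM and 3.56, 1.96 and 2.61 RPKM (limma adjusted p = 0.523). LSM4-201 and LSM4-203 are in the study's list of transcripts with CLIP windows, while LSM4-206 and LSM4-204 are not. The study selected these windows for frequent untemplated uridylation among reads crosslinked to DIS3L2 D391N. It annotated most genes with the basic GENCODE set. Whether that set holds LSM4-206 and LSM4-204 was not checked, so their absence is not a measure of binding.

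**Figure D3:**
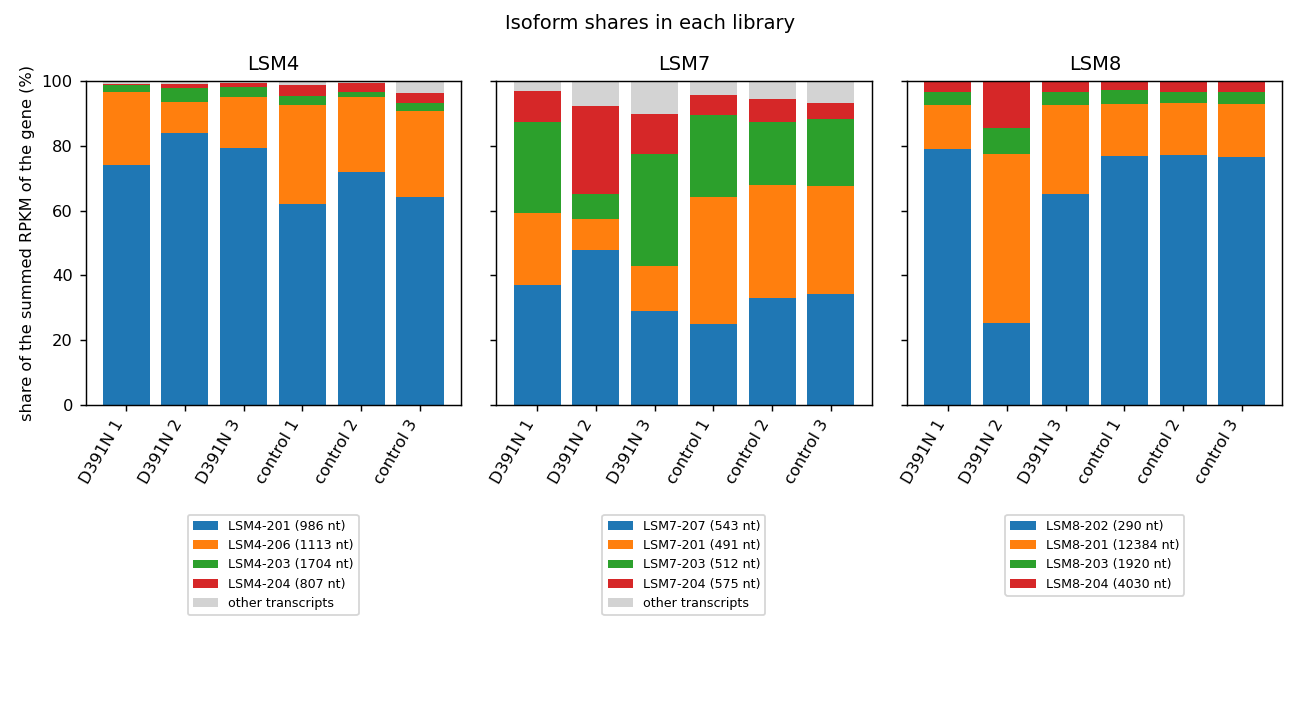
Share of the summed RPKM of LSM4, LSM7 and LSM8 (%) held by each of the 4 leading transcripts, with all other transcripts in grey, in each library. LSM4-206 (orange, left) is smaller in all 3 D391N libraries than in any control, as is LSM7-201 (orange, middle), and LSM8-202 (blue, right) is at 25.4% in D391N replicate 2 and above 65% elsewhere.

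LSM7 (ENSG00000130332, GRCh37 chr19:2321519-2328610, minus strand), another subunit of both rings, was listed at 37.5, 21.7 and 18.8 RPKM in D391N replicates 1 to 3 and at 39.9, 34.7 and 29.7 RPKM in control replicates 1 to 3. D391N replicates 2 and 3 were below all controls, and D391N replicate 1 was within their range. The log2 fold change was -0.47 ± 0.28 (SE, n = 3 against 3, limma adjusted p = 0.345), with a 95% interval from -1.14 to 0.19. Without D391N replicate 1, the log2 fold change was -0.77 and LSM7 passed the test (limma adjusted p = 0.048). In that fit 2269 genes (11%) were called in place of 48, so that a call was far more frequent among all genes. LSM7 lies opposite the gene ENSG00000273734 on the plus strand, and how strand was used in the alignment is not given in the sources used here.

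Within LSM7, reads were divided among 4 main transcripts. LSM7-201 (ENST00000252622) is protein coding, with 491 nt and 103 codons before its stop. LSM7-203 (ENST00000585409) is also protein coding, with 512 nt and 35 codons before its stop. It lacks 4 bases of LSM7-201 at a splice acceptor, and as the longer transcript it also has bases that LSM7-201 lacks. LSM7-207 (ENST00000591745, 543 nt) retains 425 bases of an intron. The sequences below mark the 4 bases and the start of the retained intron, in the sense of the mRNA. They are from GENCODE v44 on GRCh37 (chromosome 19, minus strand). In LSM7-201, which runs between 2328398 and 2324179 with an intron left out, capitals mark the bases that LSM7-203 lacks. In LSM7-207, at chr19:2328371-2328400, they mark the first bases of the retained intron.
LSM7-201: ggaggccgcgaagCCAGtggaatcctgaag
LSM7-207: agggaggccgcgaagGTGAGGAGGCTCCCG

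LSM7-201 was listed at 8.35, 2.04 and 2.60 RPKM in D391N replicates and at 15.6, 12.2 and 9.86 RPKM in control replicates. All D391N libraries were lower than all controls, but the posterior variance corresponded to only about 7.4, 1.2 and 2.8 reads in D391N replicates 1 to 3, against 23.2 to 49.04 in the controls. The log2 fold change was -1.77 ± 0.54 (SE, n = 3 against 3, limma adjusted p = 0.196), and without D391N replicate 1 it was -2.37 (limma adjusted p = 0.015). In that fit 9.08% of all transcripts were called, and the D391N values that remained rested on fewer than 3 reads each, so they are not distinguishable from a lack of assigned reads. Its share of the LSM7 sum was 22.3%, 9.41% and 13.9% in D391N and 39.2%, 35.04% and 33.2% in controls, a difference of -20.6 percentage points (exact permutation p = 0.10, the smallest that 3 against 3 can give). LSM7-201 is also in the list of transcripts with CLIP windows. Whether this listing bears on its level was not tested. The study found that CLIPed transcripts could not be told from the others by their change under D391N overexpression.

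The levels of the other tested LSM7 isoforms overlapped between groups. Of those too low to be tested, LSM7-205 (ENST00000589532) was lower without overlap, at 0.360, 0.425 and 0.466 RPKM in D391N and at 0.675, 0.899 and 1.07 RPKM in the controls. About 3.3, 3.5 and 4.5 reads stood behind the D391N values. Among all 207167 transcripts without a filter, 21579 were lower and 11200 higher without overlap. For the 42 ring transcripts these counts were 4 and 1, the latter being LSM5-209 (ENST00000468872) with less than 1 read in every library. LSM7-205 and LSM5-209 were named after their values were seen. LSM7-203 was listed at 10.5, 1.69 and 6.52 RPKM in D391N and at 10.03, 6.76 and 6.18 RPKM in control replicates, with overlap. When LSM7-201 and LSM7-203 were added, a sum chosen after their values were seen, the levels were 18.9, 3.72 and 9.12 RPKM against 25.7, 18.9 and 16.04 RPKM (exact permutation p = 0.20). The sum overlapped at its edge, where D391N replicate 1 (18.9 RPKM) was above control replicate 3 (16.04 RPKM). LSM7-207, the retained-intron form, was listed at 13.9, 10.4 and 5.42 RPKM and at 9.998, 11.4 and 10.2 RPKM, and held 25.1% to 47.8% of the sum. LSM7-204 (ENST00000587502, protein coding, 575 nt) had a share of 9.53%, 27.4% and 12.4% in D391N and of 6.21%, 6.87% and 4.76% in controls, higher without overlap (exact permutation p = 0.10), whereas its levels of 3.58, 5.94 and 2.33 RPKM and 2.48, 2.39 and 1.41 RPKM overlapped (limma adjusted p = 0.348).

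LSM8 (ENSG00000128534, GRCh37 chr7:117824198-117844089, plus strand), the subunit that distinguishes the nuclear ring, was listed at 91.4, 29.5 and 77.1 RPKM in D391N replicates 1 to 3 and at 91.9, 98.7 and 84.4 RPKM in control replicates 1 to 3. D391N replicate 2 was far below all other libraries. The log2 fold change was -0.63 ± 0.41 (SE, n = 3 against 3, limma adjusted p = 0.399), with a 95% interval from -1.60 to 0.35, and without D391N replicate 2 it was -0.12 (limma adjusted p = 0.680).

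The low value of LSM8 lay in 1 short transcript. LSM8-202 (ENST00000411938) has 290 nt, whereas LSM8-201 (ENST00000249299), the form with the highest length-weighted level, has 12384 nt and 96 codons before its stop. LSM8-202 carries 33 bases that LSM8-201 lacks, which add 11 codons without an in-frame stop. The forms are compared below in GENCODE v44 on GRCh37 (chr7:117824297-117825719, plus strand, intron left out), with the added bases in capitals.
LSM8-202 insert: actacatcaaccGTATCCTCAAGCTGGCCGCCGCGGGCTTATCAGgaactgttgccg
LSM8-201 join: actacatcaaccgaactgttgccg

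LSM8-202 was listed at 72.2, 7.49 and 50.3 RPKM in D391N and at 70.8, 76.2 and 64.7 RPKM in control replicates (log2 fold change -1.22 ± 0.80, SE, limma adjusted p = 0.452). D391N replicate 2 was the lowest, with about 9.9 reads behind it, and D391N replicate 1 was within the range of the controls. LSM8-201 was listed at 12.6, 15.4 and 21.2 RPKM and at 14.7, 15.9 and 13.7 RPKM (limma adjusted p = 0.843), and the conditions overlapped. LSM8-202 made up 76.7% to 77.2% of the summed RPKM in controls, but 9.12% to 9.30% when RPKM was weighted by transcript length. By the inverse of the posterior variance, LSM8-202 had about 478, 493 and 287 reads in control replicates 1 to 3. LSM8-201 had about 440, 548 and 294, so the weighted share does not follow these read estimates. It rests on the GENCODE v44 length of LSM8-201, which may differ from the authors' model. Without transcripts under 300 nt, LSM8 was at 19.3, 22.01 and 26.8 RPKM in D391N and at 21.1, 22.5 and 19.7 RPKM in controls, with a log2 fold change of 0.093 ± 0.17 (SE, limma adjusted p = 0.774). With length weighting it was 0.064 ± 0.17 (SE, limma adjusted p = 0.848), so that the sign of the LSM8 difference depended on this transcript. In the same libraries, transcripts under 300 nt together held 3.19%, 0.930% and 2.08% of length-weighted levels in D391N and 4.11%, 4.02% and 3.86% in controls. D391N replicate 2 was the lowest there, but for transcripts from 200 nt up to 300 nt, the size class of LSM8-202, the shares were 0.761%, 0.588% and 0.565% in D391N and 0.926%, 0.939% and 0.969% in controls, with D391N replicate 3 the lowest. The part of short transcripts as a class in the LSM8-202 level was not tested.

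**Figure D4:**
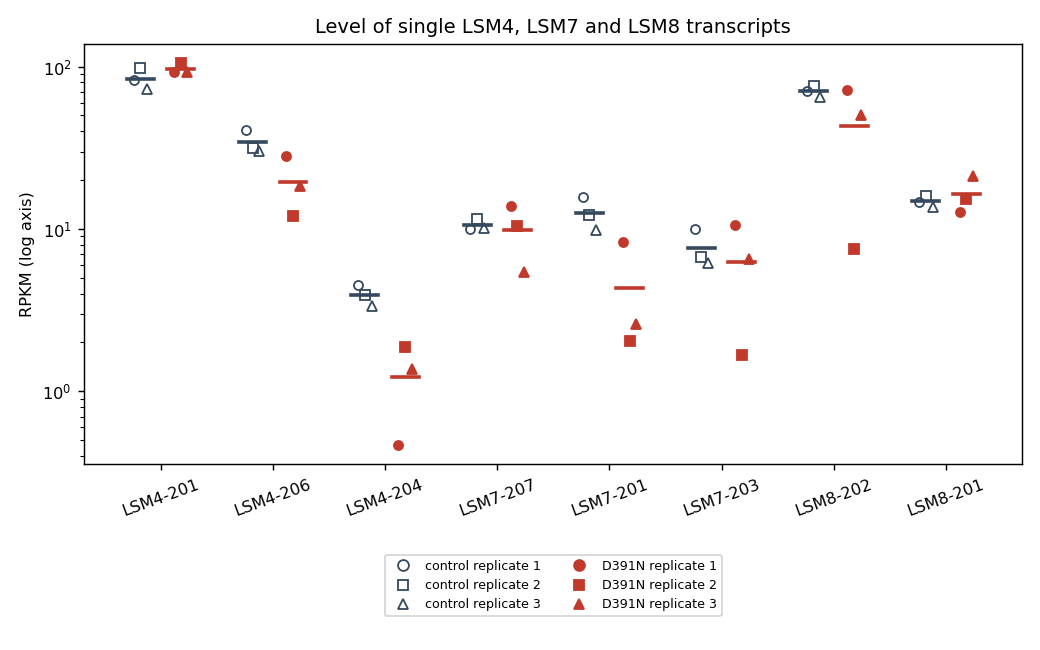
RPKM (log axis) of 8 LSM4, LSM7 and LSM8 transcripts in each library, with controls as open and D391N libraries as filled symbols and a bar at each group mean (n = 3). LSM4-206, LSM4-204 and LSM7-201 do not overlap between groups, and LSM8-202 is low in D391N replicate 2 at 7.49 RPKM.

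LSM1, the counterpart of LSM8 in the cytoplasmic ring, was listed at 27.4, 22.2 and 33.1 RPKM in D391N and at 29.3, 33.4 and 21.0 RPKM in control replicates (log2 fold change -0.011 ± 0.23, SE, limma adjusted p = 0.984). The log2 ratio of LSM8 to LSM1 was 1.74, 0.41 and 1.22 in D391N and 1.65, 1.56 and 2.01 in control replicates, a difference of -0.62 (two-sided exact permutation p = 0.30). Without transcripts under 300 nt the difference was 0.10 (exact permutation p = 0.60), and with length weighting it was 0.0095 (exact permutation p = 1). The ratio of the nuclear to the cytoplasmic subunit was therefore not distinguishable between conditions, and its sign followed the treatment of LSM8-202.

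LSM5 and LSM6 are subunits of both rings and overlapped between groups. LSM5 (ENSG00000106355, GRCh37 chr7:32524950-32534895, minus strand) was listed at 42.5, 27.8 and 47.9 RPKM in D391N and at 33.8, 38.1 and 29.1 RPKM in control replicates. The D391N libraries held both the highest and the lowest value, and the log2 fold change was 0.20 ± 0.23 (SE, limma adjusted p = 0.652), with a 95% interval from -0.36 to 0.75. Its leading transcript, LSM5-206 (ENST00000409987, protein coding, 504 nt), was at 18.1, 11.9 and 29.9 RPKM and at 16.8, 20.7 and 15.5 RPKM (limma adjusted p = 0.924). The retained-intron form LSM5-210 (ENST00000480956, 1736 nt) held 10.5%, 21.6% and 6.67% of the sum in D391N and 10.7%, 10.97% and 13.9% in controls. LSM5-202 (ENST00000409292, protein coding, 538 nt) was at 6.26, 0.430 and 0.453 RPKM in D391N and at 3.16, 2.80 and 1.61 RPKM in controls, and D391N replicate 1 alone was above them. Its log2 fold change of -1.04 ± 0.97 (SE, limma adjusted p = 0.600) became -2.22 (limma adjusted p = 0.036) without that library, where 9.08% of transcripts were called, with about 0.90 and 0.89 reads in the D391N libraries that remained, so this value is not distinguishable from a lack of assigned reads.

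LSM6 (ENSG00000164167, GRCh37 chr4:147096855-147121152, plus strand) was listed at 26.3, 25.4 and 35.4 RPKM in D391N and at 32.7, 29.2 and 28.2 RPKM in control replicates, with a log2 fold change of -0.063 ± 0.17 (SE, limma adjusted p = 0.859) and a 95% interval from -0.48 to 0.35. Most of this sum was assigned to isoforms annotated as NMD targets, which held 66.2% to 90.6% over the 6 libraries, while protein-coding isoforms held 3.55% to 8.77%. LSM6-207 (ENST00000515311, NMD, 545 nt) was at 11.8, 18.4 and 20.4 RPKM in D391N and at 22.7, 15.9 and 21.4 RPKM in controls (limma adjusted p = 0.673). LSM6-204 (ENST00000504181, NMD, 549 nt) was at 11.9, 3.64 and 3.07 RPKM and at 5.01, 5.79 and 3.28 RPKM (limma adjusted p = 0.897). LSM6-205 (ENST00000507449, retained intron, 371 nt) reached 8.94 RPKM in D391N replicate 3 and was at 0.536 to 4.28 RPKM in the other libraries. The coding LSM6-201 (ENST00000296581, 2226 nt) was at 0.633 to 2.20 RPKM over all libraries, with 1.6 to 16.7 reads.

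LSM2 (ENSG00000204392, GRCh37 chr6:31765173-31774743, minus strand), a subunit of both rings, could not be compared. Its summed level was 7.82, 4.05 and 2.46 RPKM in D391N and 3.50, 3.12 and 3.23 RPKM in control replicates. Its leading transcript, LSM2-209 (ENST00000470083, 641 nt, without a defined coding sequence), held 33.9% to 76.2% of it. The posterior variance of each of its 7 transcripts was between 1.13 and 1.86 in every library, which corresponds to less than 1 read per transcript, and these levels are not distinguishable from a lack of assigned reads. LSM2 lies in the major histocompatibility complex, a region for which the human reference holds alternative copies. Of the leading coding transcripts within 1 Mb of LSM2, 33 of 54 (61.1%) had a posterior variance above 1 in every library, compared with 1641 of 12550 (13.1%) elsewhere. Neither set was filtered for expression, so genes that are not expressed are counted as well. The part of alternative copies in the low LSM2 level was not tested. Identifiers of alternative copies of LSM2 were not paired with a symbol here, and the level given is that of 1 identifier.

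**Figure D5:**
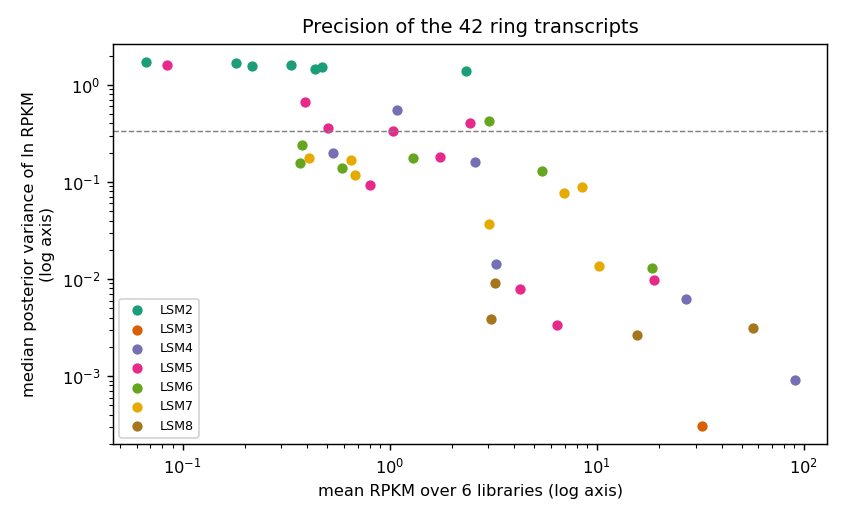
Median posterior variance of the natural log of RPKM over 6 libraries against mean RPKM (both axes log) for the 42 ring transcripts, with a colour for each gene. The dashed line marks the variance of about 3 reads, and all 7 LSM2 transcripts lie above it.

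Across the 25 tested ring transcripts, 0 passed the adjusted threshold, compared with 0.0604% of the 54671 transcripts. At an unadjusted p under 0.05 there were 3, LSM4-206, LSM4-204 and LSM7-201, beside a background of 17.6%. These were also the 3 transcripts lower in D391N without overlap, a class that held 15.6% of all transcripts, and 0 were higher without overlap against 10.1% of all transcripts. The counts were thus near or under the background. Of the 25, 12 had lower and 13 higher mean log2 levels in D391N cells, with a median difference of 0.084 beside -0.072 for all transcripts.

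The genes that work with these rings were described from fixed lists, and counts without overlap are to be read beside the 20.7% of all genes that were lower and the 10.5% that were higher without overlap. None of the 7 other LSM proteins was called (6 lower, 1 higher, median log2 fold change -0.32), and 2, LSM11 and LSM14B, were lower without overlap. None of 8 decapping partners of the cytoplasmic ring was called (3 lower, 5 higher, median 0.12). In this list PATL1, which binds the LSM1 ring, was at 12.5, 10.1 and 12.5 RPKM in D391N and at 9.42, 11.2 and 11.9 RPKM in controls (limma adjusted p = 0.725), EDC3 was lower without overlap and DCP2, the decapping enzyme, was higher without overlap. None of 12 proteins of U6 and U4/U6 particles was called (5 lower, 7 higher, median 0.044), with TUT1 lower and LARP7 and PRPF3 higher without overlap.

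Of the 7 tested proteins of the Sm core, the ring of the other spliceosomal snRNAs, 0 were called (3 lower, 4 higher, median 0.028). SNRPB, SNRPD2 and SNRPG, 3 of the 7, were lower without overlap (background 20.7%) and none was higher without overlap. Of 4 enzymes that add or remove oligo(U), DIS3L2 was called as given above, and TUT4, which adds uridines, and ERI1, a 3′ exonuclease, were higher without overlap (background 10.5%) and not called. Genes of these lists other than LSM1, PATL1 and DIS3L2 were named after their values were seen. The RNA partner of the nuclear ring, U6, had a summed level over 5 functional genes of 159, 37.5 and 37.7 RPKM in D391N and of 618, 617 and 196 RPKM in controls, lower without overlap (two-sided exact permutation p = 0.10). The nearest libraries of the 2 groups were at 159 and 196 RPKM, and this p is the smallest that 3 against 3 can give. Among all genes 20.7% were lower without overlap. Reads of these near-identical genes and of their many copies are divided by estimation, so the U6 level is uncertain. Transcripts under 200 nt together held 2.43%, 0.342% and 1.52% of length-weighted levels in D391N and 3.18%, 3.08% and 2.89% in controls, also lower without overlap, and their part in the U6 values was not tested.

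Pearson correlations between pairs of ring genes other than LSM2 over the 6 libraries ranged from -0.44 (LSM3 with LSM7) to 0.79 (LSM3 with LSM5), and all pairs share library and depth. The mean profile of the ring genes, each centred on its log2 mean, was 0.26, -0.32 and -0.022 in D391N and 0.12, 0.084 and -0.12 in control replicates, lowest in D391N replicate 2. Without LSM2, whose level is not distinguishable from a lack of reads, it was 0.13, -0.39 and 0.072 in D391N and 0.16, 0.14 and -0.11 in control replicates. Among 8609 other genes with a mean of at least 10 RPKM, those most like this profile over the 6 libraries included PRDX4 (r = 0.994), FGD5-AS1 (r = 0.994), PGAP1 (r = 0.991) and MRPS21 (r = 0.987). Against the profile without LSM2 their r was 0.888, 0.946, 0.913 and 0.919. These are among the highest of many correlations over few libraries and are given as a description.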

How the data were processed

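Reads of rRNA-depleted total RNA were trimmed by the authors (cutadapt), matched to Ensembl transcripts, coding or not, by Segemehl (build hg38 in the submitters' processing notes), and passed to BitSeq. For every transcript in every library the authors deposited 2 values: the natural log of RPKM, as the mean of its BitSeq posterior, and the variance of that posterior. Their differential expression by BitSeq needs posterior samples and was not repeated.

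Values were exponentiated to RPKM, summed over the transcripts of a symbol and changed to log2(RPKM + 0.1). Features whose mean reached 1 RPKM were tested with limma 3.58.1 (empirical Bayes with trend, R 4.3.3), with Benjamini-Hochberg adjustment over all features and a threshold of 0.05. Single values used two-sided exact permutation tests. Python 3.11.15 with numpy 2.4.6, matplotlib 3.10.9 and pandas 2.3.3 handled tables and plots. The fit was tested on simulated data. Read totals are unknown. Reads behind a value were taken as 1 over its posterior variance, and library depths were compared through the level given to transcripts that have no reads. Both cover counting and assignment error only. Symbols were found for 88.2% of gene identifiers. Lengths, biotypes, positions and sequences come from GENCODE v44 on GRCh37, which may differ from the models the authors used.

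Members and lists were chosen with earlier results of these data known. The text names all ring genes, each gene's leading transcript, those with at least 20% of their gene in any library, those without overlap and over 2-fold changed, and the LSM4 and LSM7 transcripts with CLIP windows. LSM5-202, LSM5-209, LSM6-201, LSM7-205 and the sum of 2 LSM7 transcripts were added after seeing values. The U6 sum was not a planned test. Alternatives were other pseudocounts, filters, scalings, sums, posterior summaries, no trend, a replicate block and each library left out. Length weighting and the limit of 300 nt were chosen after seeing the data. Of the 5 genes most like the ring profile, 1 is not reported here.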

Additional observations from a re-analysis of the deposited data

How the results depend on the processing

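No alternative that kept all 6 libraries called a ring gene or a ring transcript. With each library left out in turn, called genes numbered 2 to 2269, called transcripts 2 to 4984, called ring genes 0 to 1 and called ring transcripts 0 to 2, and the highest of each came without D391N replicate 1 (LSM7, LSM7-201 and LSM5-202). Called genes, 48 as reported, were 28 with a pseudocount of 0.01, 28, 7 and 18 with a minimum of 0.1 RPKM, of 5 RPKM or none, 19 and 25 with median centring and quantile normalization, 30 without trend, 29 per gene identifier, 19 with tested transcripts summed, 553 with length weighting and 291 with transcripts of at least 300 nt. Called transcripts, 33 as reported, were 142 with a pseudocount of 1, 17 and 18 with a minimum of 5 RPKM or none, and 52 without trend. With the replicate number as a block, 2 genes and 7 transcripts were called, none of them in the ring. Deviations of same-numbered libraries correlated at 0.087, 0.055 and -0.11. No pairing by number was seen, though a check on 3 libraries per group cannot exclude it.

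Median centring moved the median of all genes from -0.089 to 0.13, that of the ring genes to 0.16, LSM4 to 0.16 and LSM6 to 0.15. LSM8 turned to 0.064 with length weighting and 0.093 with transcripts of at least 300 nt, and the LSM8 to LSM1 ratio to 0.0095 and 0.10. With each library left out in turn, these log2 fold changes crossed 0: LSM2 ran from -0.052 to 0.76, LSM6 from -0.22 to 0.026, LSM2-209 (ENST00000470083) from -0.21 to 1.14, LSM5-206 (ENST00000409987) from -0.26 to 0.40, LSM5-210 (ENST00000480956) from -0.064 to 0.38, LSM6-204 (ENST00000504181) from -0.44 to 0.52, LSM6-205 (ENST00000507449) from -1.88 to 0.037, LSM7-203 (ENST00000585409) from -1.14 to 0.14, LSM7-207 (ENST00000591745) from -0.48 to 0.19 and LSM8-201 (ENST00000249299) from -0.081 to 0.29. The difference in leading share ran from -4.80 to 16.4 percentage points for LSM2 and from -9.71 to 0.165 for LSM5. The cause of the changes was not tested.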
